A study of Mus musculus with 8 samples.

Results

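Transcripts of the gut lining were measured in leukocytes sorted from that lining, through 40 genes of the intestinal epithelium. They were chosen by gene symbol from the 25230 rows of the count table. Of the 40, 16 mark epithelial cells in general, 10 absorptive enterocytes, 8 secretory cells or antimicrobial defence and 2 crypt stem cells, and 4 belong to the butyrophilin-like family. All 40 were in the table and had counts. The cells were intraepithelial lymphocytes (IELs) of the gut from 8 C57BL/6J mice, each given 35 µg of an antibody against CD3 intraperitoneally, so that the controls were activated too. Of these, 4 mice also received PBS, and the other 4 were given exendin-4 (Ex4), a peptide that activates the receptor for GLP-1, at a dose of 10 nmol/kg. Cells were collected 3 hours later, enriched on Percoll and sorted by CD45, a surface protein that leukocytes carry and epithelial cells lack. The labels name the tissue as gut, without a segment, and give no sex, age or batch, so the p-values measure the spread between these mice.

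The epithelium of the intestine is a sheet of cells joined by tight junctions and E-cadherin and renewed from stem cells in the crypts. Enterocytes absorb sugars, peptides and fats, goblet cells make mucus, Paneth cells and enterocytes release antimicrobial proteins, and enteroendocrine cells release hormones. IELs lie between these cells and bind E-cadherin through the integrin CD103, and butyrophilin-like proteins on enterocytes maintain the resident gamma-delta IELs. EPCAM and E-cadherin are not exclusive to epithelium, since some leukocytes such as Langerhans cells make them as well. In these bulk samples, fewer epithelial cells and less RNA per cell cannot be told apart, and which of the sorted cells carried each transcript was not tested.

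Libraries held 13386889 to 31843413 gene counts. CPM are counts relative to each library's total, scaled by edgeR's TMM factors, and values after ± are SDs over 4 libraries. T cell genes were abundant in each library, with Cd3e at 581 to 1059 CPM and Ptprc, which encodes CD45, at 1087 to 1537 CPM. PBS 2 and Ex4 3 had the fewest genes detected at a matched depth, 16143 and 16480, against 17532 to 19087 in the other libraries.

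The 40 genes together took 0.101%, 0.164%, 0.225% and 0.1203% of all gene counts in PBS 1 to 4 and 0.0656%, 0.141%, 0.162% and 0.113% in Ex4 1 to 4. The mean share was 0.153% ± 0.0553 (SD, n = 4) with PBS and 0.1204% ± 0.0416 (SD, n = 4) with exendin-4, and the groups overlapped. PBS 3 had the largest share and Ex4 1 the smallest. The scaled sum of the 40 genes had a 3.43-fold range, and its classes varied to different degrees. Enterocyte genes ran from 0.0119% of counts in Ex4 1 to 0.103% in PBS 3, an 8.58-fold range on the scaled sums. Secretory and antimicrobial genes ran from 0.0225% in PBS 1 to 0.0983% in Ex4 3, with PBS 2 next at 0.0931%. General epithelial genes ran from 0.0251% to 0.0678%, a 2.7-fold range on the scaled sums.

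**Figure D1:**
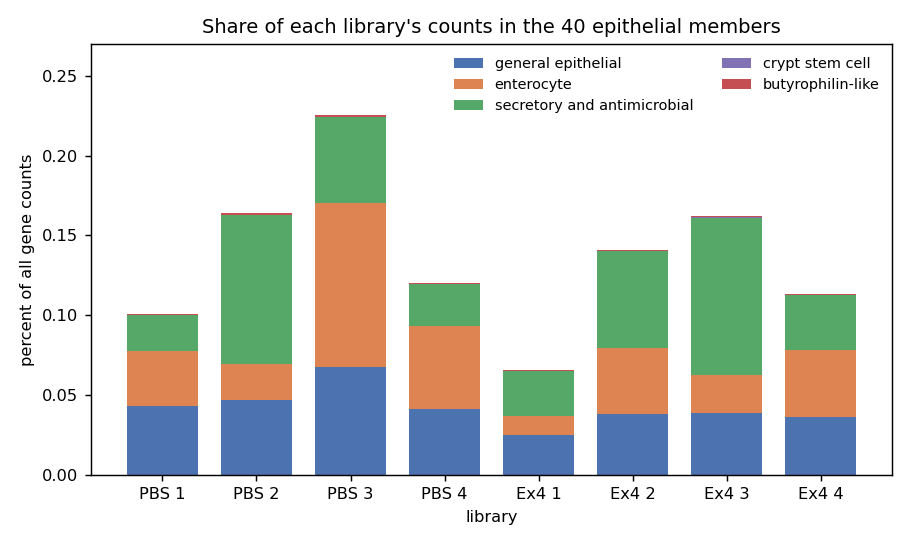
Stacked bars give the percent of all gene counts that the 40 epithelial genes took in each of the 8 libraries, coloured by class. PBS 3 has the tallest bar with the largest enterocyte share. The secretory and antimicrobial share is the largest piece in PBS 2, Ex4 1, Ex4 2 and Ex4 3, and is higher in PBS 2 and Ex4 3 than elsewhere.

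Levels of different genes were compared per kilobase of annotated exon, as a mean over the 8 libraries. Fabp1, which encodes the liver-type fatty acid-binding protein of enterocytes, was the most abundant of the 40 at 262 CPM per kb. It was followed by Reg3b and Reg3g, which encode C-type lectins that kill or repel bacteria, at 167 and 124 CPM per kb. The apolipoprotein gene Apoa1 stood at 71.7, Epcam at 65.2 and the trefoil peptide gene Tff3 at 55.9 CPM per kb. For comparison on the same scale, the T cell receptor component Cd3e was at 187 CPM per kb, below Fabp1 and above the other 39. The genes of other CD3 chains, Cd3d and Cd3g, were at 367 and 629 CPM per kb, above all 40. The lowest level per length was that of the stem cell receptor Lgr5, at 0.0748 CPM per kb. Read by library, Fabp1, Reg3b and Reg3g varied 7.25-fold, 4.69-fold and 5.65-fold between the lowest and the highest library, and the highest library was PBS 3 for Fabp1 and Ex4 3 for Reg3b and Reg3g.

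The general epithelial genes comprise adhesion and junction proteins, keratins, a microvillus protein, transcription factors and the antibody transporter. Epcam, which encodes an epithelial cell adhesion molecule, stood at 184, 146, 160.1 and 154 CPM in PBS 1 to 4 and 97.2, 129, 144 and 131 CPM in Ex4 1 to 4. PBS 1 was highest and Ex4 1 lowest, and on this scale each Ex4 value lay below each PBS value. The log2 fold change of Epcam with exendin-4 was -0.36 (SE 0.14), with an unadjusted p of 0.0236 and an adjusted p of 0.557 in edgeR's quasi-likelihood test with Benjamini-Hochberg adjustment over 14691 genes. The separation of the groups was narrow, 144.1 against 145.7 CPM, and without TMM factors the highest Ex4 value (138.8 CPM) passed the lowest PBS value (138.6 CPM). Lgals4, which encodes galectin-4 of the apical membrane, also showed no overlap with TMM factors and overlapped without them (log2 fold change -0.65, edgeR adjusted p = 0.718). Among all genes tested, 2.66% had every Ex4 value below every PBS value and 2.29% every Ex4 value above, and 0 of the 40 were of the latter kind.

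Cdh1, which encodes E-cadherin, stood at 56.1, 27.1, 28.6 and 29.5 CPM in PBS 1 to 4 and 20.5, 28.1, 21.2 and 17.03 CPM in Ex4 1 to 4. Only PBS 1 was above 30 CPM, and the groups overlapped. The edgeR test gave Cdh1 a log2 fold change of -0.70 (SE 0.24), with an unadjusted p of 0.0106 and an adjusted p of 0.473, and without PBS 1 the fold change was -0.39. The keratin genes followed another order of libraries. Krt8, which encodes a simple-epithelium keratin, was at 18.9, 64.7, 75.1 and 36.2 CPM in PBS 1 to 4 and 20.5, 29.7, 54.4 and 31.02 CPM in Ex4 1 to 4, and PBS 1 was the lowest. Krt18 encodes the partner with which keratin 8 forms filaments, and its gene lies near Krt8 on chromosome 15 (Krt8 at 101996711 to 102004342, Krt18 at 102028216 to 102032026 in GRCm38). Krt18 was at 32.5, 69.8, 90.5 and 47.8 CPM in PBS 1 to 4 and 16.9, 51.95, 43.8 and 41.1 CPM in Ex4 1 to 4, and PBS 3 was highest for both partners. Krt20, a keratin of differentiated villus cells, was at 55.4, 66.3, 146 and 77.01 CPM in PBS 1 to 4 and 33.4, 62.9, 69.1 and 39.99 CPM in Ex4 1 to 4, with PBS 3 above the other libraries. None of the 3 passed the edgeR test (log2 fold changes -0.52, -0.65 and -0.75, adjusted p = 0.854, 0.751 and 0.653).

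Vil1, which encodes the microvillus protein villin, was at 8.51, 13.5, 24.8 and 13.1 CPM in PBS 1 to 4 and 5.66, 11.4, 11.8 and 16.04 CPM in Ex4 1 to 4. PBS 3 was highest and Ex4 1 lowest, as in most enterocyte genes (log2 fold change -0.42, edgeR adjusted p = 0.841). Of the claudins, proteins of tight junctions, Cldn3 was at 5.497 ± 3.07 CPM in the PBS and 2.63 ± 0.295 CPM in the Ex4 libraries. Cldn7 was at 13.9 ± 8.62 CPM in the PBS and 10.3 ± 3.39 CPM in the Ex4 libraries, and Cldn15 at 6.63 ± 1.54 CPM in the PBS and 6.86 ± 1.39 CPM in the Ex4 libraries. Cldn3 had the largest decrease in mean among the general genes (log2 fold change -1.06 (SE 0.45), edgeR adjusted p = 0.595), whereas Cldn15 had a log2 fold change of 0.04. In PBS 1 Cldn3 was at 1.83 CPM, below each of the Ex4 libraries, so its groups overlapped. Pigr, which encodes the receptor that carries IgA across the epithelium, was at 24.4 ± 12.1 CPM in the PBS and 19.02 ± 8.05 CPM in the Ex4 libraries, Krt19 at 23.04 ± 13.1 CPM in the PBS and 17.6 ± 4.73 CPM in the Ex4 libraries and the proline-rich Phgr1 at 3.55 ± 1.49 CPM in the PBS and 2.3 ± 0.826 CPM in the Ex4 libraries. None of these 6 genes passed the edgeR test (adjusted p from 0.595 to 0.984).

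The transcription factor genes Cdx1, Cdx2 and Hnf4a had the lowest levels per kilobase of the general genes, at 0.931, 0.324 and 0.652 CPM per kb. Cdx2, which encodes a homeobox factor of intestinal identity, had 5, 16, 35 and 10 counts in PBS 1 to 4 and 9, 21, 8 and 17 counts in Ex4 1 to 4. That equals 0.2404 CPM in PBS 1, the lowest, and 1.73 CPM in PBS 3, the highest. Its relative Cdx1 was at 2.002 ± 1.11 CPM in the PBS and 1.26 ± 0.577 CPM in the Ex4 libraries. Hnf4a, a nuclear receptor that drives enterocyte genes, was at 2.596, 2.78, 6.29 and 2.53 CPM in PBS 1 to 4 and 3.36, 3.57, 1.79 and 2.26 CPM in Ex4 1 to 4, with PBS 3 alone above 4 CPM. The log2 fold changes were -0.67 for Cdx1, -0.29 for Cdx2 and -0.37 for Hnf4a (edgeR adjusted p = 0.857, 0.963 and 0.901). Without PBS 3 the values of Cdx2 and Hnf4a turned to 0.40 and 0.03.

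The enterocyte genes were ordered alike across the libraries: all 10 had their highest value in PBS 3, and 9 of 10 their lowest in Ex4 1. Over all genes tested, PBS 3 was the highest library for 9.3% and Ex4 1 the lowest for 9.52%. The exception was Lct, lowest in PBS 2. Genes of fat handling are described first. Fabp1 was at 112, 69.7, 349 and 196 CPM in PBS 1 to 4 and 48.04, 160.0, 98.4 and 129 CPM in Ex4 1 to 4, and PBS 4 came next after PBS 3. Fabp2, which encodes the intestinal fatty acid-binding protein, was at 19.95, 21.9, 76.8 and 63.6 CPM in PBS 1 to 4 and 18.9, 33.3, 29.8 and 35.6 CPM in Ex4 1 to 4. Ex4 1, PBS 1 and PBS 2 were the 3 lowest libraries for Fabp2, so low values occurred in both groups.

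Apoa1 and Apoa4, which encode apolipoproteins of chylomicrons and high-density lipoprotein, lie close together on chromosome 9 (46228630 to 46230469 and 46240844 to 46243458, GRCm38). Apoa1 was at 45.9, 61.8, 188 and 112 CPM in PBS 1 to 4 and 17.5, 106, 72.3 and 104 CPM in Ex4 1 to 4. Apoa4 was at 21.3, 20.6, 108 and 53.8 CPM in PBS 1 to 4 and 5.53, 40.4, 16.1 and 51.2 CPM in Ex4 1 to 4, a 19.5-fold range. Both were highest in PBS 3 and lowest in Ex4 1, and the groups overlapped. Apob, which encodes the structural protein of chylomicrons, was at 4.28, 3.57, 12.9 and 5.79 CPM in PBS 1 to 4 and 0.885, 2.86, 1.65 and 3.74 CPM in Ex4 1 to 4. The 2 highest values of Apob were in PBS 3 and PBS 4, and Ex4 4 overlapped with PBS 2. Log2 fold changes were -0.74 (SE 0.56) for Fabp1, -0.63 (SE 0.45) for Fabp2, -0.45 (SE 0.65) for Apoa1, -0.85 (SE 0.82) for Apoa4 and -1.55 (SE 0.51) for Apob. None passed the edgeR test (adjusted p from 0.456 for Apob to 0.929 for Apoa1). Without PBS 3 that of Fabp1 was -0.24, that of Apoa4 -0.20 and that of Apoa1 0.00.

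The hydrolases and carriers of the brush border gave a similar order. Alpi, which encodes intestinal alkaline phosphatase, was at 63.4, 19.5, 110.1 and 36.8 CPM in PBS 1 to 4 and 8.41, 29.4, 10.5 and 23.2 CPM in Ex4 1 to 4. PBS 3 and PBS 1 were highest and Ex4 1 and Ex4 3 lowest. Sis, the sucrase-isomaltase gene, was at 10.5, 4.48, 22.01 and 8.94 CPM in PBS 1 to 4 and 1.55, 10.7, 4.24 and 9.33 CPM in Ex4 1 to 4, and Slc5a1, which encodes the sodium-glucose cotransporter of the apical membrane, at 29.6, 25.1, 108 and 40.1 CPM in PBS 1 to 4 and 8.54, 26.99, 21.9 and 24.7 CPM in Ex4 1 to 4. For Slc5a1, PBS 3 stood above the other 7 libraries, the next of which was PBS 4, and Ex4 2 lay above PBS 2. Anpep, the aminopeptidase N gene, was at 13.3, 8.004, 17.5 and 12.5 CPM in PBS 1 to 4 and 4.78, 5.301, 6.76 and 9.61 CPM in Ex4 1 to 4, and of the Ex4 libraries only Ex4 4 reached into the range of PBS. Lct, the lactase gene, was at 3.65, 0.0415, 5.502 and 4.05 CPM in PBS 1 to 4 and 2.04, 2.89, 0.896 and 4.45 CPM in Ex4 1 to 4. PBS 2 held 1 count of Lct against 72 to 111 in the other PBS libraries. Alpi had a log2 fold change of -1.69 (SE 0.63), Slc5a1 of -1.30 (SE 0.54), Anpep of -0.96 (SE 0.30), Sis of -0.83 (SE 0.59) and Lct of -0.37 (SE 0.84). The edgeR adjusted p-values were 0.59, 0.636, 0.432, 0.8 and 0.955, and none of the 5 passed.

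**Figure D2:**
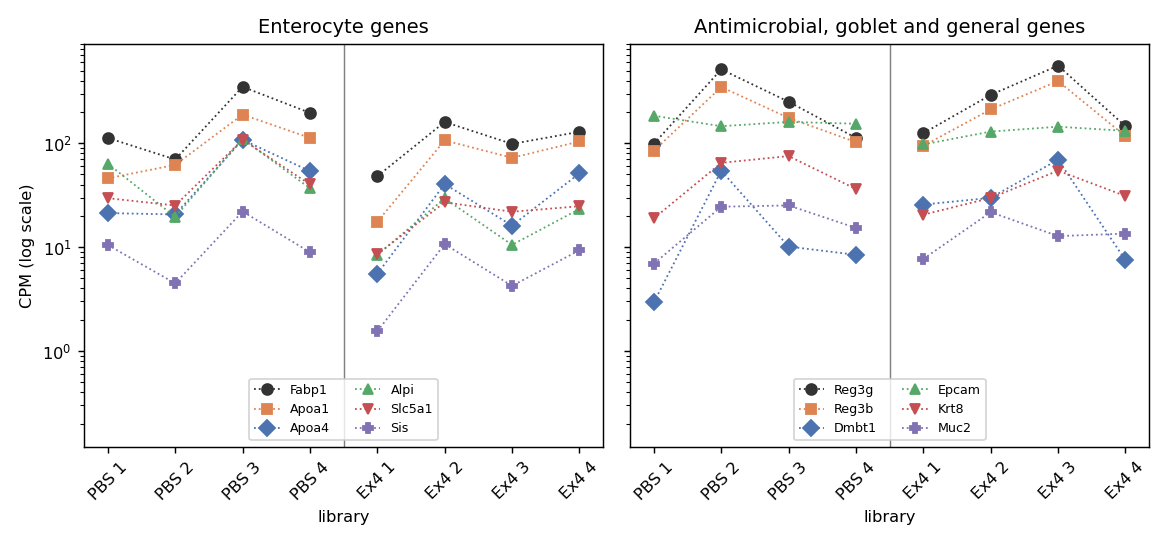
Points give the CPM (log axis) of 6 enterocyte genes (left) and of 6 antimicrobial, goblet cell and general epithelial genes (right) in each library, with dotted lines only to link the points of a gene within a group. The enterocyte genes peak in PBS 3 and are lowest in Ex4 1, Reg3b, Reg3g and Dmbt1 are highest in PBS 2 and Ex4 3, and Epcam stays between 97.2 and 184 CPM.

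As a description only, the promoters of the members were searched on both strands for letters of the motifs of 3 intestinal factors. Whether these factors had a part in the differences between libraries was not tested. The windows covered the 250 bases before the start in each RefSeq promoter entry (GRCm38.p6), and 34 of the 40 genes matched an entry, with 36 windows. That start was not always the end of the gene's listed span. The windows of Lgals4, Btnl4 and Btnl6 lay inside that span, as did a further window of Cldn7 and of Hnf4a. Those of Apob, Btnl1, Btnl2 and Hnf4a reached past the listed gene start. The sequences of 4 enterocyte genes are shown for these letters, and that of Reg3g as a gene of another class. Capitals mark matches to CNATAAA (CDX) or TGNACTTTG (HNF4), on either strand.
Fabp1, chr6:71199629-71199878, + strand: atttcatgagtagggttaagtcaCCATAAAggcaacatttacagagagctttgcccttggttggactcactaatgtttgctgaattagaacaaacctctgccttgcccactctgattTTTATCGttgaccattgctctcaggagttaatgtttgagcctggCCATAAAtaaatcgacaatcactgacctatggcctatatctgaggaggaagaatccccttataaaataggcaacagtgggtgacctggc
Fabp2, chr3:122894822-122895071, + strand: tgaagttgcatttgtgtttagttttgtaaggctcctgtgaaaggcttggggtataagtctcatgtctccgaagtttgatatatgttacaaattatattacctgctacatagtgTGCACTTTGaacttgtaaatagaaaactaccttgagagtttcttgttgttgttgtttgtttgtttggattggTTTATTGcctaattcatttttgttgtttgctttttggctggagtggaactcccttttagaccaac
Apoa4, chr9:46240594-46240843, + strand: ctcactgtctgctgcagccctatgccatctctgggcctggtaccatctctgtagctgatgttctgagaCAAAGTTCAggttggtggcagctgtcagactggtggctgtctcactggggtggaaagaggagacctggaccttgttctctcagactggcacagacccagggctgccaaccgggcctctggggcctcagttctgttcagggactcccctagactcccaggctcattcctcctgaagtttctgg
Alpi, chr1:87101607-87101856, - strand: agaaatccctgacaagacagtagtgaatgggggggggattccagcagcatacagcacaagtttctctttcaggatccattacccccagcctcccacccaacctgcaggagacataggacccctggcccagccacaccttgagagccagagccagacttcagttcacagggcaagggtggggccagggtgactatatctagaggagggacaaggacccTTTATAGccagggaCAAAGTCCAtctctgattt
Reg3g, chr6:78468875-78469124, - strand: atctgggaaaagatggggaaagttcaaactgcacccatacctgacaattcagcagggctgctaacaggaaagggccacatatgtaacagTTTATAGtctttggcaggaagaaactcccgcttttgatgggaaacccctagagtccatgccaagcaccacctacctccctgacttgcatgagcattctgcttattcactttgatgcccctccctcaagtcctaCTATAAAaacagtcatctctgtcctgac

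The HNF4 letters occurred in 3 of 10 enterocyte windows, beginning 19 bases before the start of Alpi, 137 before that of Fabp2 and 182 before that of Apoa4. They occurred in 1.19% of all 32851 windows, and among the other members only in that of Btnl2. The CDX letters occurred in 5 of 10 enterocyte windows (Fabp1, Fabp2, Alpi, Apob and Sis), in 2 of 15 general windows (Epcam and Krt20) and in 2 of 6 secretory windows (Agr2 and Reg3g), against 9.81% of all windows. Fabp1 held 3 such matches, 227, 133 and 89 bases before its start. In Alpi, Apob, Krt20 and Reg3g each CDX match contained the TATA box letters TATAAA, so these matches cannot be told from a TATA box by letters alone. With such matches left out, 5 member windows and 6.85% of all windows held the CDX letters. The HNF1 letters, GTTAAT then 1 base of any kind then ATTAA, occurred in 0 of the 36 member windows and in 0.0609% of all windows.

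The secretory and antimicrobial genes split by library pattern. The goblet cell genes were Muc2, which encodes the gel-forming mucin, Tff3, a trefoil peptide gene, and Agr2, a disulfide isomerase gene needed for mucin folding. Muc2 was at 6.92, 24.5, 25.2 and 15.3 CPM in PBS 1 to 4 and 7.698, 21.7, 12.8 and 13.5 CPM in Ex4 1 to 4. Tff3 was at 10.96, 27.1, 41.4 and 25.5 CPM in PBS 1 to 4 and 10.6, 40.7, 28.8 and 35.3 CPM in Ex4 1 to 4, and Agr2 at 3.99, 9.497, 16.9 and 8.38 CPM in PBS 1 to 4 and 6.68, 12.7, 13.3 and 6.85 CPM in Ex4 1 to 4. All 3 were highest in PBS 3, PBS 1 and Ex4 1 were their lowest pair, and the groups overlapped. Their log2 fold changes were -0.37, 0.14 and 0.04 (edgeR adjusted p = 0.884, 0.97 and 0.99). Those of Tff3 and Agr2 were near 0 and changed sign when single libraries were left out, from -0.13 to 0.42 and from -0.23 to 0.41.

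Reg3b and Reg3g lie within the same cluster on chromosome 6 (78370885 to 78373466 and 78466269 to 78468874, GRCm38). Reg3b was at 84.5, 347, 175 and 102 CPM in PBS 1 to 4 and 94.2, 211, 396 and 117 CPM in Ex4 1 to 4. Reg3g was at 98.6, 513, 250.4 and 112 CPM in PBS 1 to 4 and 125, 291, 557 and 146 CPM in Ex4 1 to 4. Ex4 3 and PBS 2, one library of each group, had the 2 highest values of both genes, and PBS 1 the lowest. Their transcripts share identical runs of at most 35 bases, under the read length. Dmbt1, which encodes a mucosal scavenger protein that binds bacteria, was at 2.93, 54.3, 10.1 and 8.43 CPM in PBS 1 to 4 and 25.7, 29.8, 69.4 and 7.49 CPM in Ex4 1 to 4, and Ex4 3 and PBS 2 were again the 2 highest and PBS 1 the lowest. These 2 libraries are also the ones with the fewest genes at matched depth, and the part of that in the Reg3b, Reg3g and Dmbt1 values was not tested. Log2 fold changes were 0.21 (SE 0.61), 0.20 (SE 0.71) and 0.80 (SE 1.01) for Reg3b, Reg3g and Dmbt1, and none passed (edgeR adjusted p = 0.967, 0.973 and 0.918). Without Ex4 3 those of Reg3b, Reg3g and Dmbt1 were -0.35, -0.39 and 0.14, and without PBS 2 they were 0.75, 0.85 and 2.20. Over all genes tested, Ex4 3 was the highest library for 16.9% and PBS 2 for 14.2%.

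The ratio of Reg3g to Fabp1 counts within a library put the 2 patterns side by side. It was 0.878, 7.36, 0.718 and 0.574 in PBS 1 to 4 and 2.59, 1.82, 5.66 and 1.13 in Ex4 1 to 4, a 12.8-fold range. By contrast the ratio of Reg3g to Reg3b stayed between 1.10 and 1.48, and that of Fabp2 to Fabp1 between 0.178 and 0.393. The ratio of Dmbt1 to Reg3g was less even, at 0.0297 in PBS 1 to 0.206 in Ex4 1, although both genes had the same pair of highest libraries.

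Lyz1, the lysozyme gene of Paneth cells, was at 1.78, 0.954, 0.942 and 1.24 CPM in PBS 1 to 4 and 0.664, 0.714, 0.586 and 1.06 CPM in Ex4 1 to 4, with PBS 1 highest (log2 fold change -0.71, edgeR adjusted p = 0.848). Its paralog Lyz2, the lysozyme gene of macrophages, was at 57.4, 18.4, 11.8 and 22.99 CPM in PBS 1 to 4 and 14.9, 21.5, 19.6 and 8.69 CPM in Ex4 1 to 4 and was also highest in PBS 1. The transcripts of the 2 genes share an identical run of 118 bases in GENCODE M21, under the read length of 200 bases, and how the counting treated reads that match both is not known, so the Lyz1 values are uncertain. Chga, which encodes chromogranin A of enteroendocrine granules, was at 1.06, 2.198, 2.73 and 1.35 CPM in PBS 1 to 4 and 0.177, 2.18, 1.17 and 1.201 CPM in Ex4 1 to 4, with Ex4 1 lowest (log2 fold change -0.63, edgeR adjusted p = 0.884). The crypt stem cell genes were scarce. Olfm4, a marker of crypt base cells, had 0, 76, 22 and 0 counts in PBS 1 to 4 and 23, 28, 92 and 13 counts in Ex4 1 to 4. A count of 0 allows up to 0.144 CPM in PBS 1 and 0.169 CPM in PBS 4, taking 3 counts as the limit and covering counting error only. Lgr5, a receptor that marks crypt stem cells, had 3, 4, 20 and 9 counts in PBS 1 to 4 and 58, 20, 7 and 11 counts in Ex4 1 to 4, with Ex4 1 highest. Neither passed the edgeR test (log2 fold changes 0.53 (SE 1.14) and 1.26 (SE 0.87), adjusted p = 0.951 and 0.793). That of Olfm4 ran from -0.11 to 2.05 with 1 library left out, and that of Lgr5 from 0.37 without Ex4 1 to 1.97 without PBS 3.

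The 4 butyrophilin-like genes lie together on chromosome 17 in GRCm38, with Btnl2 at 34354789 to 34369492, Btnl1 at 34377123 to 34386162, Btnl4 at 34468410 to 34477428 and Btnl6 at 34507870 to 34518776. Btnl1 and Btnl6 encode subunits of a heteromer on villus enterocytes, and Btnl4 a close relative of Btnl6. Btnl1 had 45, 90, 86 and 40 counts in PBS 1 to 4 and 25, 28, 53 and 38 counts in Ex4 1 to 4, or 3.102 ± 1.06 CPM in the PBS and 1.67 ± 0.765 CPM in the Ex4 libraries. Btnl2 had 32, 78, 120 and 40 counts in PBS 1 to 4 and 54, 41, 107 and 40 counts in Ex4 1 to 4, or 3.24 ± 1.93 CPM in the PBS and 2.61 ± 0.895 CPM in the Ex4 libraries. Both were highest in PBS 3 on the CPM scale, and in both the groups overlapped. Btnl6 had 42, 66, 13 and 5 counts in PBS 1 to 4 and 10, 12, 19 and 0 counts in Ex4 1 to 4. Its 2 highest libraries were PBS 2 and PBS 1, at 2.74 and 2.02 CPM, and PBS 3 and PBS 4 lay within the range of Ex4. The 0 in Ex4 4, the shallowest library, allows up to 0.212 CPM. Btnl4 had 5, 0, 6 and 8 counts in PBS 1 to 4 and 14, 8, 36 and 11 counts in Ex4 1 to 4, was at 0 in PBS 2 (up to 0.124 CPM) and did not pass the filter on low counts, so it was not tested.

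Among the 3 tested butyrophilin-like genes, log2 fold changes were -0.91 (SE 0.49) for Btnl1, -0.31 (SE 0.49) for Btnl2 and -1.82 (SE 0.89) for Btnl6. None passed (edgeR adjusted p = 0.691, 0.931 and 0.671), and that of Btnl2 was 0.12 without PBS 3. The subunit genes Btnl1 and Btnl6 differed in their library pattern, since Btnl6 was at 0.644 CPM in PBS 3, where Btnl1 was highest at 4.26 CPM. Relative to Epcam, Btnl1 counts were 0.00815 (Ex4 2) to 0.0266 (PBS 3), a 3.27-fold range. Transcripts of Btnl4 and Btnl6 share an identical run of 69 bases, and those of the other 5 pairs at most 19, all under the read length. The other butyrophilin genes of a wider list were mostly too low to test: of 10 listed, 8 were in the table and 1 passed the filter. That gene was the annotated pseudogene Btnl5-ps, at 2.69 ± 2.08 CPM in the PBS and 1.21 ± 1.21 CPM in the Ex4 libraries (log2 fold change -1.14, edgeR adjusted p = 0.782), and Btnl9, a relative outside the chromosome 17 group, ran from 0 to 1.46 CPM.

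**Figure D3:**
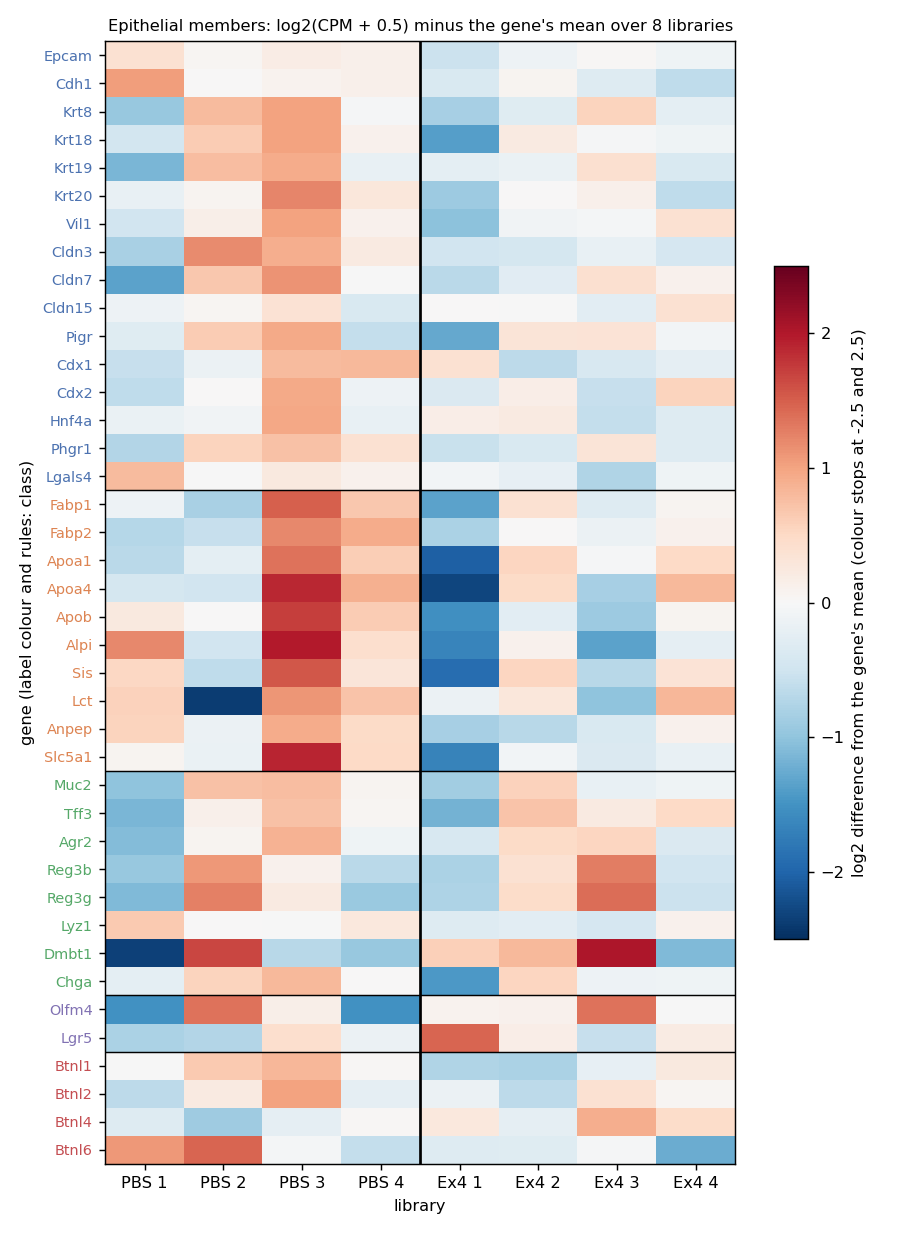
Each row is one of the 40 genes and each column a library, with colour for log2(CPM + 0.5) minus the gene's mean over the 8 libraries and horizontal rules between classes. The enterocyte rows are red in PBS 3 and blue in Ex4 1, and the Reg3b, Reg3g, Dmbt1 and Olfm4 rows are red in PBS 2 and Ex4 3.

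The order of libraries thus differed between classes of epithelial gene. Of all 40 genes, 26 had their highest value in PBS 3, among them 10 of 16 general, 10 of 10 enterocyte, 4 of 8 secretory and antimicrobial, 0 of 2 stem cell and 2 of 4 butyrophilin-like genes. In PBS 1, 14 of the 40 genes were lowest, among them Krt8, Krt19, Cldn3, Cldn7 and Reg3g, where 17.7% of all genes tested were. Epcam, Cdh1, Lgals4 and Lyz1, 4 of the 40, were highest there, where 15.9% of all genes tested were. Relative to Epcam in the same library, Krt8 counts ran from 0.103 in PBS 1 to 0.469 in PBS 3, and Apoa4 counts from 0.0569 in Ex4 1 to 0.673 in PBS 3. Epcam itself had a 1.89-fold range, the second smallest of the 40 after Cldn15 with 1.75-fold.

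For exendin-4 against PBS, 39 of the 40 genes passed the filter on low counts and 0 passed the edgeR test in either direction, where 0.0136% of all genes tested did. DESeq2 and limma-voom also called 0 of them. At an unadjusted edgeR p under 0.05 there were 8, all with a lower mean in Ex4, and 3.9% of all genes tested were lower and 3.71% higher by that rule. These 8 were Anpep, Apob, Cdh1, Epcam, Alpi, Cldn3, Slc5a1 and Krt20. Fold changes were below 0 for 31 of the 39, against 47.1% of all genes tested, and their median log2 fold change was -0.52, against 0.02 for all genes tested. By class, 15 of 16 general, 10 of 10 enterocyte, 3 of 8 secretory and antimicrobial, 0 of 2 stem cell and 3 of 3 butyrophilin-like genes were below 0. The medians were -0.48 for general, -0.84 for enterocyte, 0.09 for secretory and antimicrobial and -0.91 for butyrophilin-like genes. Genes that vary together across libraries, as the enterocyte genes did, are not independent, and no test was made over the classes.

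These counts rested in part on PBS 3 and Ex4 1. Without PBS 3 the median of the tested genes was -0.22, that of the enterocyte genes was -0.31, and 4 genes were lower at an unadjusted edgeR p under 0.05, where 5.48% of all genes were. Without Ex4 1 the enterocyte median was -0.52 and 3 genes were lower by that rule, against 3.29% of all genes. Without PBS 1 the number rose to 11, against 3.08% of all genes, and 36 of 40 were below 0. DESeq2 on all libraries also gave 11, against 3.46% of all genes. Without both PBS 1 and PBS 3, a choice made after seeing the values, 1 gene was lower by that rule, against 2.47% of all genes, and 31 of 40 were below 0. Among the butyrophilin-like genes the middle of the 3 values was that of Btnl1, and it was -0.75 without PBS 3. Btnl4 passed the filter in that fit, and the median over all 4 was then -0.32.

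**Figure D4:**
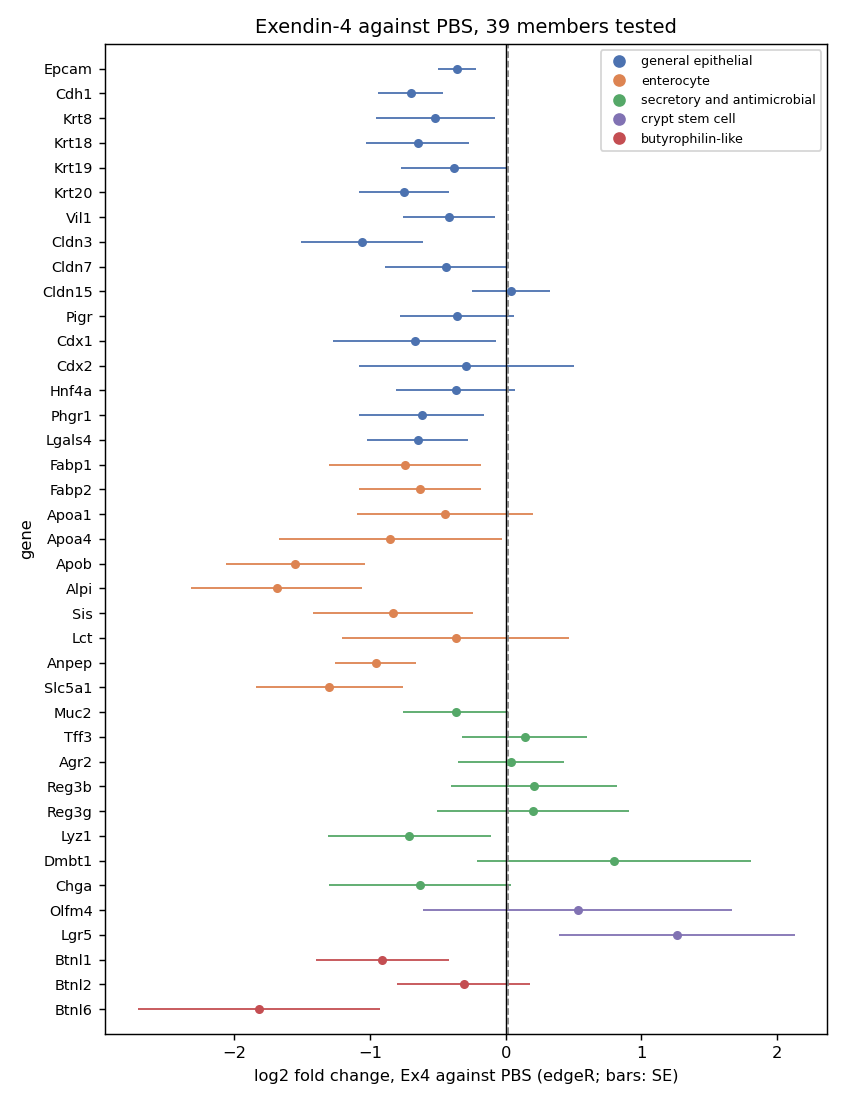
Points give the log2 fold change of exendin-4 against PBS for the 39 genes tested, with bars for the SE, coloured by class, a solid line at 0 and a dashed line at the median of all genes tested (0.02). Enterocyte genes lie between -1.69 and -0.37, and secretory and antimicrobial genes lie on both sides of 0.

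In wider lists of epithelial genes, 0 genes were called in either direction. The pair with the highest mean CPM is named for each list, and CPM favours long transcripts. Of 27 genes of nutrient absorption and the brush border, 25 were tested, 22 were below 0 and the median was -0.78. At an unadjusted edgeR p under 0.05, 6 were lower and 0 higher. By that rule 3.9% of all genes tested were lower and 3.71% higher. The pair with the highest CPM was Rbp2, the retinol-binding protein gene of enterocytes, at 53.1, 29.2, 192 and 96.5 CPM in PBS 1 to 4 and 25.8, 77.5, 44.1 and 59.7 CPM in Ex4 1 to 4, and Prap1, at 33.4 ± 22.2 CPM in the PBS and 18.5 ± 8.51 CPM in the Ex4 libraries. PBS 3 was the highest library for 19 of the 25 and Ex4 1 the lowest for 17. Of 26 genes of junctions and epithelial transcription factors, 25 were tested, 18 were below 0, the median was -0.24, and 2 were lower by that rule. Its pair was the protease inhibitor gene Spint2, at 76.5 ± 5.41 CPM in the PBS and 67.3 ± 11.9 CPM in the Ex4 libraries, and Lad1, at 96.2, 27.4, 34.5 and 20.3 CPM in PBS 1 to 4 and 14.4, 26.3, 22.3 and 17.6 CPM in Ex4 1 to 4, where PBS 1 stood apart. Of 32 goblet, Paneth, enteroendocrine and tuft cell genes, 25 were tested, 17 were below 0 and the median was -0.43, with 2 lower and 1 higher by that rule. The pair was Zg16 and Fcgbp, both genes of goblet cell mucus, at 67.04 ± 29.5 CPM in the PBS and 55.3 ± 27.97 CPM in the Ex4 libraries and at 55.7 ± 29.4 CPM in the PBS and 45.8 ± 20.9 CPM in the Ex4 libraries. Per kilobase, Spink4 led that list at 55.1 CPM per kb, with Zg16 at 48.6 and Fcgbp at 4.83 CPM per kb.

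The remaining epithelial lists held fewer tested genes. At an unadjusted edgeR p under 0.05, 1 gene of the crypt list was lower, and 0 of the IL-22 and colon lists differed. Among all genes tested, 3.9% were lower and 3.71% higher by that rule. The 15 genes of IL-22 receptors and response in epithelium included the receptor genes Il22ra1 and Il10rb but not the members Reg3b and Reg3g. Of this list, 12 were tested, 8 were below 0 and the median was -0.25. Its pair was Il10rb, a receptor chain that leukocytes also make, at 88.6 ± 10.7 CPM in the PBS and 75.2 ± 13.7 CPM in the Ex4 libraries, and Reg1, at 58.9 ± 43.3 CPM in the PBS and 24.9 ± 14.3 CPM in the Ex4 libraries. Of 10 crypt stem and transit-amplifying genes, 8 were tested, 3 were below 0 and the median was 0.07, with Znrf3 at 26.9 ± 7.63 CPM in the PBS and 19.7 ± 2.72 CPM in the Ex4 libraries and Axin2 at 10.2 ± 2.81 CPM in the PBS and 13.0 ± 5.07 CPM in the Ex4 libraries. Of 14 genes of colon epithelium, 7 were tested, 4 were below 0 and the median was -0.17, and the pair was Car4, a membrane carbonic anhydrase gene, at 22.2 ± 12.7 CPM in the PBS and 16.9 ± 9.54 CPM in the Ex4 libraries, and Muc1, at 14.9 ± 4.05 CPM in the PBS and 13.3 ± 1.101 CPM in the Ex4 libraries. The colon genes Car1 and Mptx1 were at 0 in 7 of the 8 libraries, whereas Fabp2, Sis and Apoa4, genes of the small intestine, were present in each.

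Markers of other cells were also measured. Of 12 T cell and IEL genes 4 were below 0, 0 were called and the median was 0.04, and the pair with the highest CPM was the granzyme genes Gzma, at 40742 ± 7145 CPM in the PBS and 47099 ± 5416 CPM in the Ex4 libraries, and Gzmb, at 19226 ± 3990 CPM in the PBS and 19386 ± 1833 CPM in the Ex4 libraries. Of 8 B and plasma cell markers, all were tested, 7 were below 0 and 0 were called (Jchain and Cd79a had the highest CPM), and their summed level was 863 to 1476 CPM with PBS and 270.3 to 2239 CPM with exendin-4. Ex4 1 was the lowest library for 6 of these 8, as it was for 9 of 10 enterocyte genes, and Ex4 3 the highest for 5. Of 10 myeloid markers, with Cd68 and Itgax the highest in CPM, 5 were below 0, with summed levels of 128 to 239 CPM and 126 to 208 CPM. Of 10 stromal and endothelial markers 6 were tested and 4 were below 0, with summed levels of 56.1 to 95.8 CPM and 46.1 to 61.2 CPM, most of it from Pecam1, which leukocytes also make, followed by Col1a1. Of the fibroblast genes, Dcn was at 0 in 7 of the 8 libraries, whereas Col1a1 was at 2.17 to 11.4 CPM and Pdgfrb at 1.06 to 2.12 CPM. The collagen genes Col1a2 and Col3a1 were low, at 0 to 1.06 and 0 to 0.664 CPM, both highest in Ex4 1. Pdgfra was at 0.207 to 2.9 CPM. At an unadjusted edgeR p under 0.05, 4 markers of these lists differed. Over all genes tested, 3.9% were lower and 3.71% higher by that rule, and 2.66% had every Ex4 value below every PBS value. Cd8a, which encodes the CD8 alpha chain of most IELs, was at 1599 ± 322 CPM in the PBS and 1059 ± 117 CPM in the Ex4 libraries, with no overlap (log2 fold change -0.59, unadjusted p = 0.00198, edgeR adjusted p = 0.351). Pecam1 was at 65.4 ± 16.7 CPM in the PBS and 38.6 ± 9.94 CPM in the Ex4 libraries (log2 fold change -0.76, unadjusted p = 0.00246, edgeR adjusted p = 0.354), and both unadjusted p-values were below that of each epithelial member. The groups of Pecam1 did not overlap either, though narrowly, with PBS 2 at 49.19 and Ex4 2 at 49.02 CPM. Xcr1, a gene of cross-presenting dendritic cells, had a log2 fold change of -0.65 and Cd68, a gene of macrophage lysosomes, one of 0.56 (edgeR adjusted p = 0.473 and 0.439). The groups did not overlap for Xcr1 and overlapped for Cd68. The part of these cells in the epithelial values was not tested.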

How the data were processed

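Raw counts per gene symbol were deposited by the authors for 25230 genes in 8 libraries. The submitters' processing notes name STAR 2.7.9a, DESeq2 and mm10, with no role or order; the counter is not stated, nor is the annotation. Stranded mRNA libraries were read as pairs of 200 bases, per the labels. Groups came from the labels, which describe separate mice. Columns left unused numbered 0.

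The test was that of edgeR 4.0.16 in R 4.3.3 (filterByExpr, TMM, robust quasi-likelihood F test, Benjamini-Hochberg over 14691 genes, threshold 0.05). The SE is the fold change divided by the root of F. Alternatives used DESeq2 1.42.0, limma-voom (limma 3.58.1), other scaling and filters, a replicate block and omitted libraries. The members, classes and lists were chosen with earlier results of these data known, and the members named with every library's value by a fixed list; of each wider list the 2 genes with the highest mean were named, and any past the threshold. The library values of Krt18, Apob, Slc5a1 and Dmbt1, the gut segment genes and Il22 in the closing section, Lyz2 beside Lyz1, Lad1's and Rbp2's library values, Spink4, Cd8a, Xcr1, Pdgfrb and the list marker genes named for being at 0 were chosen after values were seen. So were Col1a2, Col3a1 and Pdgfra. Lengths are merged GENCODE M21 exons and coordinates and promoters RefSeq GRCm38.p6, the assembly of mm10, and all 40 members had a length and coordinates. The chi-square per gene between replicates averaged 20.6 to 77.0, above sampling noise, so each counted as 1 sample. On counts simulated for this comparison, edgeR ran on 14321 genes and recovered 7.46% of 1.5-fold, 49.3% of 2-fold and 74.2% of 3-fold changes, with 7 of 94 calls false. The changes were placed in genes drawn at random from all genes tested, so recovery among the 40 members was not measured. The precision of low genes is set by depth, and 3 counts equal 0.103 to 0.212 CPM. Python 3.11.15 with pandas 2.3.3 was used for tables.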

Additional observations from a re-analysis of the deposited data

Results flagged for a closer look

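For the 40 genes, the class sums and their total, Dixon's ratio asked whether 1 library of a group of 4 stood apart. The ratio is the distance of an extreme library from the next one as a share of the group's range, on the log2(CPM + 0.5) scale. It exceeded the 95% critical value in 4 of 92 groups, where 4.6 would be reached by chance at 1 in 20. Among the PBS libraries, Cdh1 was high in PBS 1, at 5.82 against 4.91 for its neighbour (ratio 0.884). Hnf4a was high in PBS 3, at 2.76 against 1.71 (ratio 0.902), and Lct was low in PBS 2, at -0.89 against 2.05 (ratio 0.847). Among the Ex4 libraries, Olfm4 was high in Ex4 3, at 1.88 against 0.63 (ratio 0.905).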

How the results depend on the processing

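With all 8 libraries edgeR called 2 of 14691 genes, neither of them among the 40, and 0 of the 40 epithelial genes were called under any of the 19 other fits, where the smallest adjusted p was 0.112 (DESeq2, Anpep). Genes called over the whole table numbered 70 with DESeq2, 8 without a filter, 1 with limma-voom, non-robust dispersions, the replicate block or without both PBS 1 and PBS 3, and 1 to 14 with 1 library left out (14 without PBS 2). The median of the butyrophilin-like genes was -0.91 over 3 genes, -0.48 without both PBS 1 and PBS 3, and -1.23 to -0.32 with 1 library left out. Fits that include Btnl4 take it over 4 genes, which with all 8 libraries gave -0.63 (DESeq2 and no filter). Over the same 3 genes it was that of Btnl1, -1.23 to -0.75 with 1 library left out. The other medians and the shares of counts moved by less than 1 SD between replicates, which is a wide limit here. With 1 library left out, the enterocyte median ran from -1.13 to -0.31. That of the secretory and antimicrobial genes ran from -0.34 to 0.29 and so changed sign. Leaving out 1 of 4 libraries cannot move their mean by 1 SD, so for the shares this limit could not show dependence on a single library. Same-numbered libraries of the groups did not deviate together (r from -0.235 to 0.144), nor did every library correlate best with its own number, so the numbers were not taken as pairs.

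Of 736 values of single genes under other fits, 28 in 11 genes changed sign, none with a called value. With 1 library left out, the fold change of 31 of 39 genes moved by over 1.5 times at least once. With limma-voom Cldn15 was -0.01 and Lct 0.64. Without both PBS 1 and PBS 3 Cdx2 was 0.08, Hnf4a 0.04, Lct 0.32, Reg3b -0.15, Reg3g -0.18 and Olfm4 -0.06, and without both PBS 2 and Ex4 3 Agr2 was -0.16. With 1 library left out the ranges that crossed or reached 0 were -0.10 to 0.16 for Cldn15, -0.71 to 0.40 for Cdx2, -0.54 to 0.03 for Hnf4a, -0.70 to 0.00 for Apoa1, -0.13 to 0.42 for Tff3, -0.23 to 0.41 for Agr2, -0.35 to 0.75 for Reg3b, -0.39 to 0.85 for Reg3g, -0.11 to 2.05 for Olfm4 and -0.56 to 0.12 for Btnl2. The cause was not tested.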

Other observations

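Lists of 9 genes of the proximal and 8 of the distal small intestine showed no order of libraries that all members shared. They were chosen after the values above were seen and are given without a test. Gata4, a transcription factor gene of duodenum and jejunum, was at 0.865, 0.0829, 1.09 and 1.24 CPM in PBS 1 to 4 and 0.708, 1.09, 0.517 and 0.989 CPM in Ex4 1 to 4, lowest in PBS 2 and next in Ex4 3, the order that Lct also had. Fabp6, which encodes the bile acid-binding protein of the ileum, was at 1.92, 4.48, 11.2 and 7.03 CPM in PBS 1 to 4 and 0.708, 1.804, 10.8 and 4.31 CPM in Ex4 1 to 4, highest in PBS 3 and Ex4 3. Slc10a2, the ileal bile acid transporter gene, was at 0, 0, 0.694 and 0.0562 CPM in PBS 1 to 4 and 0, 0.0752, 0.965 and 0 CPM in Ex4 1 to 4 and was above 0.2 CPM only in those 2 libraries. Other genes of the lists ran otherwise. The proximal gene Slc40a1, an iron exporter gene, was highest in PBS 2, at 2.41 CPM, and the proximal Slc11a2, an iron importer gene, was at 35.4 CPM there and at 23.8 to 36.6 CPM over the 8 libraries. The distal gene Fgf15, an enterohepatic hormone gene, was lowest in Ex4 3, at 1.48 CPM. PBS 3 held the highest values of both Lct and Fabp6.

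Il22, which encodes a lymphocyte cytokine that induces Reg3b and Reg3g in epithelium, was at 40.6, 189, 92.1 and 125 CPM in PBS 1 to 4 and 339.9, 204, 344 and 226 CPM in Ex4 1 to 4, a gene also chosen after its values were seen. Each Ex4 value of Il22 lay above each PBS value, which held for 2.29% of all genes tested. Ex4 3 was highest and PBS 1 lowest for both Il22 and Reg3g, whereas Ex4 1, next highest for Il22, had a Reg3g level of 125 CPM, the 3rd lowest. A relation between them was not tested.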
